A study of Mus musculus with 5 samples.

Results

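The near-saturated m6A sites of mouse embryonic stem cells (mESCs) were the positions at which almost every RNA molecule read was called methylated. They were chosen as exonic positions with a valid coverage above 25 calls in both the DMSO and the STM2457 library and an m6A level of 90% or more in DMSO, where the level is the share of m6A calls among the valid calls. The rule kept 761 of 450918 covered exonic positions, or 0.169%. They lay on 459 of the 1670 genes with a site at 25% or more in DMSO. The other 5335 sites between 25% and 90% in DMSO served as the comparison, together with the 951 of them at 75% or more. Because the DMSO level chose the sites, it is given as a description and was not tested.

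The levels came from direct RNA sequencing, in which native RNA molecules pass through a nanopore and each adenosine is called methylated or not from the current. DMSO and STM2457 were 1 library each of E14 mESCs that carried 2C::3xtbGFP-PEST, Zscan4::mCherry-PEST, a Dox::APOBEC1-YTH-HA-IRES-tdiRFP cassette that was not induced, and a homozygous METTL3-FKBP12 F36V knock-in, also not induced, with the genotype labelled WT. The cells had received 30 µM STM2457 for 48 h or its solvent, DMSO at 0.025% v/v. WT and 2 independent Mettl5-KO clones, 1 library each from the lines of an earlier study, formed a second dataset of another labelled batch, so that cell line, batch and run cannot be told apart between the datasets. All were grown in serum with LIF, with 2i added for maintenance. The libraries held 17897440 to 71574467 valid calls, and of 11 mESC marker genes 8 to 10 had covered positions, while the markers of primitive endoderm, mesoderm and neural cells, fibroblasts and 2-cell-like cells had none. Mettl5 itself was not analysed here, so the knockouts were not checked from their reads.

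N6-methyladenosine (m6A) is placed on mRNA in the nucleus by the METTL3-METTL14 complex with its adaptor WTAP, mostly at the DRACH motif (D is A, G or T, R is A or G, H is A, C or T), and is bound by reader proteins of the YTH family. In mRNA it is known to gather in long internal exons and around stop codons, because exon junction complexes keep the writer away from sequence close to splice junctions. STM2457 occupies the catalytic pocket of METTL3. METTL5 methylates 18S ribosomal RNA.

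The sequences of 21 bases around some of the sites are shown first, since the results turn on how sites with the same core sequence differed after STM2457. They are in transcript direction in mm10, taken from GENCODE M21 transcripts, and the capitals mark the 5-mer whose middle A is the site. The first set holds the sites that kept most m6A after STM2457, all among those with at least 50 valid calls in both libraries.
Nup62, chr7:44830012-44830032, plus strand: gcacacatGGACTctcttcag
Bid, chr6:120893973-120893993, minus strand: atgccaagTGACTgttcctga
Rcl1, chr19:29143396-29143416, plus strand: aacattacAGACTttcttttc
Arf6, chr12:69373266-69373286, plus strand: ccggggacGGACTctatgagg
Cdk9, chr2:32707838-32707858, minus strand: acatgatgGGACAtttgagat
Ythdf1, chr2:180911521-180911541, minus strand: cataacatGGACAttggtact
Cog8, chr8:107052588-107052608, minus strand: ggccgcttGGACTctctgctt

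The second set holds the sites that kept least by the same rule.
Rpp25l, chr4:41712452-41712472, minus strand: cagacacgGGACTagaccccc
Hyal2, chr9:107570795-107570815, plus strand: tatgtacaGAACTgggagagc
Scand1, chr2:156311885-156311905, minus strand: ggctccctGGACTgacaccct
Dph3, chr14:32082941-32082961, minus strand: cttattatAAACTgtggtttt
Med28, chr5:45525413-45525433, plus strand: tgttggaaGGACTctgttgga
Mfsd5, chr15:102280351-102280371, plus strand: ctggcagcGGACTggctccaa
Gins2, chr8:120581506-120581526, minus strand: ccacccaaGGACTgcacgcca
Cisd1, chr10:71331023-71331043, minus strand: aacctaatGGACAgttgcgag

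The third set holds near-saturated neighbours on 1 transcript, whose levels after STM2457 were far apart in Hnrnpa0 and Ubqln4 and alike in Sox2.
Hnrnpa0, chr13:58127176-58127196, minus strand: tattacttGGACCttggtcgt
Hnrnpa0, chr13:58127201-58127221, minus strand: tcattgatGGACTctattttt
Hnrnpa0, chr13:58127246-58127266, minus strand: ctgaaggtGGACTcggcccca
Ubqln4, chr3:88568958-88568978, plus strand: agtctgatGGACTtggaactg
Ubqln4, chr3:88568965-88568985, plus strand: tggacttgGAACTgaagatag
Sox2, chr3:34651373-34651393, plus strand: tgagggctGGACTgcgaactg
Sox2, chr3:34651380-34651400, plus strand: tggactgcGAACTggagaagg

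The fourth set holds well covered sites whose 5-mer was not DRACH, because its last base was G or its second base was T.
Eid2, chr7:28268909-28268929, plus strand: taagtaaaGGACGgttttgta
Ppil1, chr17:29251376-29251396, minus strand: gtctctggGGACGtttgtatt
Zfp42, chr8:43295965-43295985, minus strand: ggcggtgtGTACTgtggtgtc

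In DMSO, the 761 sites had a median level of 95.1%, and 99 of them were at 100%. The median coverage was 51 valid calls, from 26 to 2237, and with an exact binomial 95% interval the lower bound reached 80% at 651 sites and 90% at 175 sites. These intervals cover counting error only. Among sites with at least 100 DMSO calls, those just inside the threshold were Rpp25l at 90%, C1qbp at 90.03% and Gins2 at 90.06%, and those just outside were Yars at 89.9%, Rpl10l at 89.8% and Epop at 89.7%. Of the sites at 100%, the most covered were in Sephs2, a selenophosphate synthetase, with 119 calls, in Rpp25l, related to a subunit of RNase P, with 102 calls, and in Dnajb1, an HSP40 co-chaperone, with 80 calls. Calls under the confidence filter, which the level leaves out, were 3.95% of the reads at the near-saturated sites and 8.95% at the other sites in DMSO. At the near-saturated sites they were 3.76% in STM2457. In WT and the Mettl5-KO clones they were 3.75% to 4.26%, over the 146 near-saturated sites covered above 25 in all of these.

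After STM2457, most near-saturated sites remained methylated on a large share of molecules. Their median level was 42.9%, with quartiles at 32.2% and 58.1%, against 8.57% at the other sites and 22.0% at the sites between 75% and 90% in DMSO. The level was 25% or more at 675 near-saturated sites (88.7%) and 50% or more at 289 (38.0%), against 597 (11.2%) and 49 (0.918%) of the other sites. It was 90% or more at 17 near-saturated sites and at 0 of the 5335 other sites. By the rule the other sites were under 90% in DMSO already. Of them, 1986 started between 25% and 40% and 825 between 40% and 50%. The choice of sites thus largely set the contrast at 90%. It set that at 50% only in part, since the remaining other sites started at 50% or more. At the 659 sites between 80% and 90% in DMSO, the 90th percentile in STM2457 was 39.1%. The spread among the near-saturated sites was an SD of 18.7 points, while the mean counting error of a site was 6.52 points. At the 299 sites with 50 or more calls in both libraries the median was 41.5% and the SD 16.8 points. Each condition had 1 library, so none of these values has a replicate error.

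**Figure D1:**
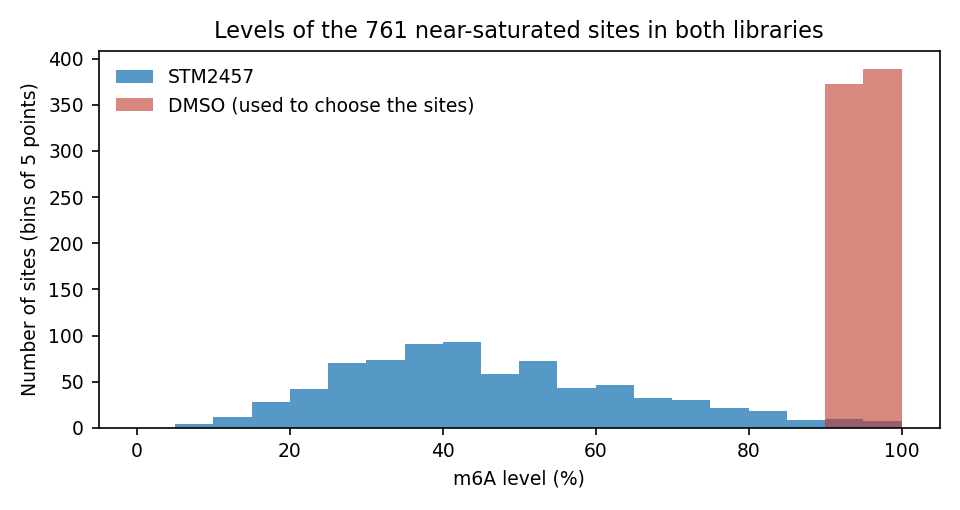
Number of near-saturated sites (y axis) by m6A level in percent (x axis, bins of 5 points) in the DMSO library, which chose the sites, and in the STM2457 library. The DMSO levels all lie at 90% or more, while the STM2457 levels spread from 6.90% to 100% with a median of 42.9%.

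The level after STM2457 rose with the level in DMSO, and more steeply at the top. It had a median of 4.23% at the sites between 25% and 40% in DMSO, 11.5% between 60% and 70%, 24.5% between 80% and 90%, 36.2% between 90% and 95%, 48.2% between 95% and 98%, and 53.8% at 98% or more. The share of the DMSO level that remained was 17.7% at the other sites and 44.7% at the near-saturated sites in the median. In points, the median fall rose from 26.2 between 25% and 40% to its largest, 60.3, between 80% and 90%. It was 52.4 over all near-saturated sites and 44.7 at those at 98% or more. On the scale of log2 odds, with 0.5 added to each count, the order was the opposite of that of the remaining share. The median change was -3.49 at the other sites and -4.63 at the near-saturated ones. Thus whether near-saturated sites responded less or more than the others depended on the scale. Within the near-saturated sites the DMSO and STM2457 levels had a Pearson's r of 0.442 and a Spearman's rho of 0.455 (n = 761 sites, which share libraries and, within a gene, reads). The STM2457 level had almost no relation to the DMSO coverage, with a rho of -0.0204.

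**Figure D2:**
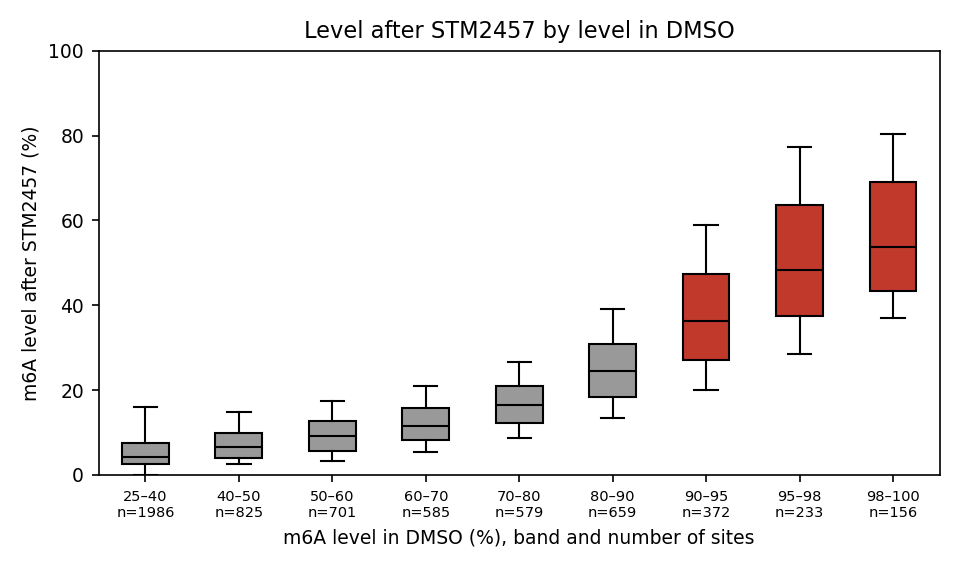
Level after STM2457 in percent (y axis) of sites grouped by their level in DMSO (x axis, bands in percent with the number of sites). Boxes give the quartiles and median, whiskers the 10th and 90th percentiles, and red marks the near-saturated bands, whose medians are 36.2%, 48.2% and 53.8%.

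By Fisher's exact test per site with Benjamini-Hochberg adjustment over the 6201 sites tested, 730 of the 761 near-saturated sites were lower in the STM2457 library and 0 were higher at an adjusted p under 0.05. Over all sites tested 91.5% were called lower and 0.323% higher. As the DMSO level chose the sites, nothing is read from these counts. The level was lower in STM2457 than in DMSO at 757 sites. It was 100% in both libraries at a site of B3gnt7, a glycosyltransferase, and of Slc35a4, a nucleotide sugar transporter family member, and higher by a small margin in Eid1 and Bid.

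The sites that kept most m6A were led by Nup62, a nucleoporin of the central channel, at which the level was 97.7% of 133 calls in DMSO and 96.9% of 129 calls in STM2457 (exact 95% interval 92.3% to 99.1%). In Bid, a pro-apoptotic BCL2 family member, the level was 92.8% in DMSO and 94.3% in STM2457 (87.2% to 98.1%). In Rcl1, a ribosome biogenesis factor, it was 96.4% and 92.5% (85.1% to 96.9%). In these 3 genes the STM2457 interval included the DMSO level. Hnrnpa0, an RNA-binding protein, followed with 97.3% in DMSO and 89.0% in STM2457, and Arf6, a small GTPase of membrane traffic, with 97.3% and 87.8%. Cdk9, the kinase of the elongation factor P-TEFb, had 95.8% and 87.7%. Ythdf1, itself an m6A reader, had 94% and 86%, and Cog8, of a Golgi tethering complex, 96.1% and 82.4%.

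At the other end, Rpp25l had a site at 90% in DMSO and 13.4% in STM2457 (6.89% to 22.7%). Hyal2, a hyaluronidase, fell from 94.0% to 15.3%, Scand1, a SCAN domain protein, from 91.2% to 15.5%, and Dph3, of diphthamide synthesis, from 90.7% to 16.1%. Med28, a Mediator subunit, started higher, at 96.7% of 121 calls, and was at 17.2% of 145 calls in STM2457. Mfsd5, a transporter, Gins2, a subunit of the replicative helicase, and Cisd1, an iron-sulfur protein of mitochondria, had 17.8%, 18.1% and 18.9% in STM2457. Both sets were chosen by these levels, which are therefore a description.

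The most covered near-saturated site lay in Eef2, the translation elongation factor, with 90.9% of 2237 calls in DMSO and 30.4% of 1526 calls in STM2457. Pcbp1, a poly(C)-binding protein, had 95.2% of 735 calls and kept 75.9% of 551. Calr, a chaperone of the endoplasmic reticulum, had 97.0% of 676 calls and kept 40.5% of 533, and C1qbp, a mitochondrial protein, had 90.03% of 582 and kept 21.4% of 523. At this depth the intervals spanned few points, as in Pcbp1 (72.1% to 79.4%) and Calr (36.3% to 44.8%), and these 4 sites still differed by more than their counting error. A pair of sites in Rps4l, with 69.8% and 52.8% in STM2457, is uncertain because the gene is a near-identical copy of another ribosomal protein gene. The same holds for Rpl10l, Rbmxl1 and Rbmxl2, and 25 sites overlapped more than 1 gene.

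The transcript base was A at all 761 sites, and 749 of them (98.4%) stood in a DRACH motif, against 88.9% of the other sites and 8.60% of the covered exonic positions. GGACT alone held 360 sites (47.3%), against 18.6% of the other sites. Of the 2471 covered GGACT positions, 14.6% were near-saturated, followed by 4.50% for GAACT, 3.97% for AGACT and 3.87% for GGACA. The share was lower in other DRACH 5-mers, such as TGACT with 20 of 2402 covered positions (0.833%) and TGACA with 1 of 2567 (0.039%). The sites shown above for Nup62 and Rpp25l had the same 5-mer, and the median level after STM2457 spanned few points between the common 5-mers. It was 44.4% for GGACT, 42.1% for GAACT, 42.4% for AGACT, 41.9% for GGACA and 38.1% for GGACC. Of the 12 sites outside DRACH, 7 were GGACG and 3 were GTACT. The GTACT site of Zfp42 (REX1), a pluripotency marker, had 92.4% of 354 calls in DMSO and 40.4% of 297 in STM2457, and the GGACG site of Ppil1, a splicing-associated isomerase, had 97.3% of 223 and 47.3% of 205.

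The bases around the 5-mer also differed. Of the near-saturated DRACH sites 44.2% had A 4 bases before the site and 40.3% had T 3 bases before it, against 37.4% and 29.1% of the other DRACH sites and 26.7% and 22.6% of the covered DRACH positions. A T 4 bases after the site was found at 47.4% of them, against 37.6% and 25.6%, and an A 3 bases after it at 6.94%, against 13.4% and 23.5%. Of 2091 covered DRACH positions with AT just before the 5-mer, 5.40% were near-saturated, against 1.73% of the 36669 others. This dinucleotide was picked after the highest levels in STM2457 had been seen, and so was the following split. The 116 near-saturated sites with AT before the 5-mer had a median STM2457 level of 47.5%, and 21 of them (18.1%) were at 75% or more, while the 645 others had a median of 42.4% with 45 (6.98%) at 75% or more. Among the sites between 80% and 90% in DMSO the medians were 23.5% with AT and 24.8% without. Of the 66 near-saturated sites at 75% or more in STM2457, 59.1% had a T 3 bases before the site, against 34.9% of the 86 under 25%. Those 66 sites also started from a higher DMSO level, 97.7% against 92.6% in the median.

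By place in the transcript, 479 sites (62.9%) lay in the 3′ UTR, 269 (35.3%) in the coding sequence, 8 in the 5′ UTR and 5 in noncoding exons. Of the other sites 67.4% lay in the 3′ UTR and 30.8% in the coding sequence. The last exon held 92.6% of the near-saturated and 91.5% of the other sites. The stop codon was within 200 bases for 52.2%, against 47.8% of the other sites. Read from the DRACH positions that were covered, 3.84% of those in the first 200 bases after the stop codon were near-saturated, against 1.78% in the 200 bases before it and 1.0% beyond 400 bases after it. The median level after STM2457 was 42.9% in the 3′ UTR and 42.6% in the coding sequence. Single-exon transcripts held 76 near-saturated sites (9.99%), against 4.95% of the other sites.

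Near exon junctions few DRACH positions were near-saturated, and few were sites at all. Of 8442 covered DRACH positions within 50 bases of a junction, 1 was near-saturated, a GGACT of Llgl1, a cell polarity gene, 12 bases away. Of the positions 51 to 100 bases away 13 of 4592 were near-saturated, and the share was 1.25% up to 150 bases, 2.56% up to 200 bases and 3.74% up to 400 bases away. It was lower again beyond 400 bases, at 2.51% (319 of 12693), and 5.11% in single-exon transcripts. The share of DRACH positions at 25% or more in DMSO, near-saturated ones included, was also lower near junctions. It was 0.687% within 50 bases, 4.55% up to 100 bases, 25.8% between 200 and 400 bases and 17.1% beyond 400 bases. Exons other than the last one held 56 near-saturated sites, of which 55 were in exons of 400 bases or more. Read from the covered DRACH positions, 53 of 1672 (3.17%) in long exons before the last one were near-saturated, beside 2.47% in the last exon, against 1 of 8918 in shorter ones, in Tor1aip2. Direct RNA reads start at the poly(A) tail, so coverage favoured last exons, and the shares here are of covered positions.

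**Figure D3:**
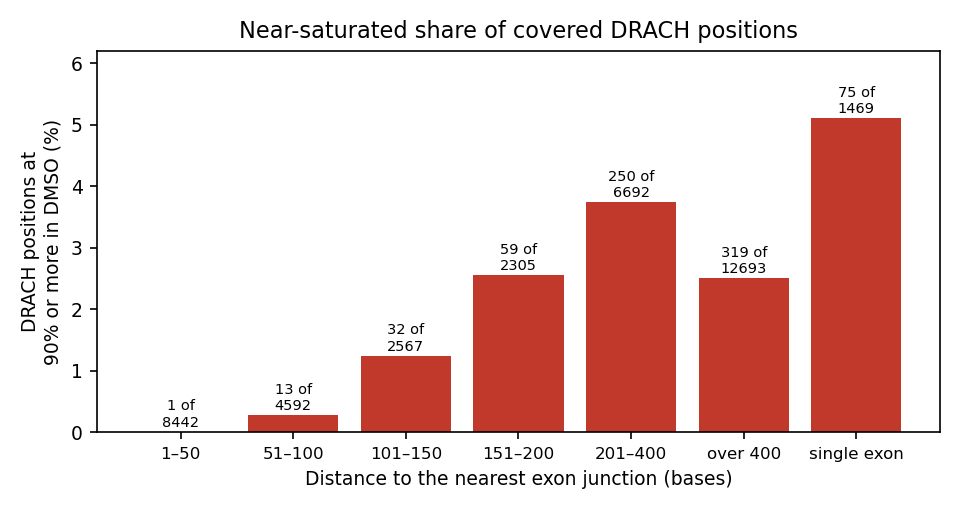
Share in percent of covered DRACH positions at 90% or more in DMSO (y axis) by distance in bases to the nearest exon junction (x axis, with transcripts of a single exon last). Labels give near-saturated positions of all covered ones. The bars rise from 1 of 8442 within 50 bases to 250 of 6692 between 200 and 400 bases and are lower beyond, at 319 of 12693.

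Near-saturated sites often shared a gene, as sites at 25% or more did with them. Of the 761 sites, 475 (62.4%) shared their gene with another near-saturated site and 738 (97.0%) with another site at 25% or more. The 76 genes with 3 or more held 281 of them, whereas 286 genes had 1. Genes with a near-saturated site had a median of 6 sites at 25% or more, against 2 for the 1211 genes with sites but none near-saturated. A gene with more sites also has more chances to hold a near-saturated one. Most were Gemin4, of the SMN complex that assembles spliceosomal particles, and Ints5, an Integrator subunit, with 8 each. Dyrk3, a kinase, Nol9, of ribosomal RNA processing, and Nup62 had 6 each. In Gemin4 these 8 stood among 27 sites at 25% or more, and all its near-saturated sites overlapped a second annotated gene. The nearest site at 25% or more was a median of 42 bases away, and the nearest near-saturated site, where the transcript had one, 119 bases. For 23 genes the near-saturated site was the only site.

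The levels after STM2457 were about as far apart within genes as between genes. The pooled SD within genes was 18.9 points, against 18.7 points over all near-saturated sites. Between 514 pairs on 1 transcript the median difference was 18.1 points, and between pairs on different genes it was 17.5 points. Pairs at most 50 bases apart differed by 13.6 points in the median (58 pairs), and pairs more than 200 bases apart by 19.4 points (298 pairs). Sites of 1 gene share reads, so these pairs are not independent.

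**Figure D4:**
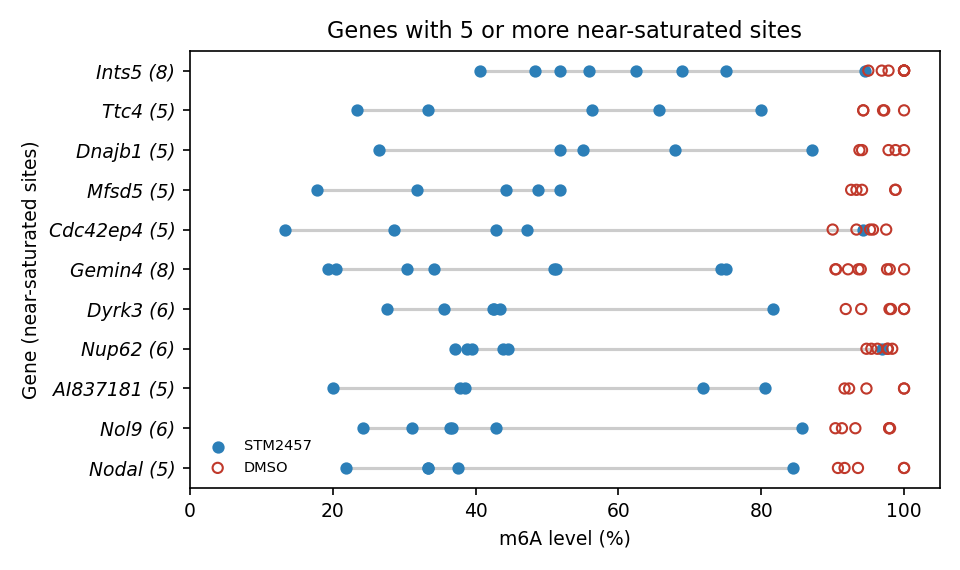
m6A level in percent (x axis) of each near-saturated site of the genes with 5 or more of them (y axis, number of sites in brackets), with filled points for STM2457 and open points for DMSO. The DMSO levels stand together at 90% or more, while the STM2457 levels of 1 gene spread widely, in Nup62 from 37.1% to 96.9%.

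In Nup62, 5 of the 6 sites were between 37.1% and 44.5% in STM2457, and the sixth was at 96.9%, although all lay between 94.7% and 98.3% in DMSO. In Ints5 the 8 sites ranged from 40.6% to 94.6% in STM2457, and in Gemin4 from 19.4% to 75%. In Nodal, a TGF-beta family ligand, 4 sites were between 21.9% and 37.5% and the fifth, in the 3′ UTR, at 84.4%. In Hnrnpa0 the 3 sites printed above spanned 70 bases of the 3′ UTR. Their levels in DMSO were 94.5% of 146 calls, 97.3% of 147 calls and 97.1% of 140 calls, and in STM2457 28.0%, 89.0% and 38.8%. The middle one was thus far above both neighbours, and the intervals did not overlap (82.2% to 93.8% against 20.3% to 36.7% and 30.1% to 48.1%).

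The closest pairs were 7 bases apart. In Ubqln4, a ubiquitin-binding shuttle protein, the GGACT site was at 93.3% in DMSO and 90.6% in STM2457 (74.98% to 98.02%), and the GAACT site 7 bases on at 93.1% and 31.3% (16.1% to 50.01%). In Slc35a4 both were at 100% in DMSO and stood at 33.3% and 100% in STM2457. In Sox2 they were at 97.7% and 100% in DMSO and at 60.6% and 59.4% in STM2457. The first pairs differed by more than their counting error and the last did not.

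Of the gene groups listed, the pluripotency and stem cell regulators had 10 near-saturated sites on 7 of 15 covered genes, or 17.9% of their sites at 25% or more. Over all genes 12.5% of the sites were near-saturated, and 459 of the 2570 covered genes had such a site. Sox2, a core pluripotency factor, had 4, at 97.8%, 97.7%, 100% and 95.7% in DMSO and 59.4%, 60.6%, 59.4% and 42.4% in STM2457. Klf2, a Kruppel-like factor, kept 77.3% of 211 calls from 97.7% in DMSO, and Id1, a target of BMP signalling, kept 59.2% from 97.6%. Nanog kept 46.3% of 41 calls, Nr0b1 (DAX1) 42.4%, and Utf1, a chromatin-bound factor of undifferentiated cells, 24.9% of 233 calls. The levels of this group in STM2457 thus ranged from 24.9% to 77.3%, with a median of 52.8%.

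Among m6A writers, readers and erasers, Ythdf1 was the 1 gene of 5 covered with near-saturated sites (13.6% of the sites in the group). Its 3 sites, all GGACA, were at 98%, 100% and 94% in DMSO and at 49.02%, 91.8% and 86% in STM2457. Chromatin factors had near-saturated sites on 2 of 15 genes (13.3% of sites). Cbx7, a Polycomb protein, had 3, at 77.8%, 72.7% and 93.5% in STM2457, and Kdm5b, a histone demethylase, had 1 at 46.4%. RNA-binding and splicing proteins had 19 near-saturated sites on 12 of 55 genes (13.8% of sites). These include the sites of Rbmxl1 and Rbmxl2, which are uncertain as said above. Zinc finger proteins had 16 on 9 of 17 genes (19.8%), and Kruppel-like and immediate early factors 12 on 5 of 8 genes (20.3%). In this last group Jund, an AP-1 subunit, had 4 sites at 31.1% to 44.4% in STM2457, and Ier2, an immediate early gene, 4 at 34.4% to 63.9%. Cytosolic ribosomal proteins, a group that leaves out pseudogenes, had 1 near-saturated site on 1 of 31 genes, in Rpl10l, also uncertain as said above. It was 5.26% of their 19 sites at 25% or more, among 300 covered DRACH positions. Rps4l, with the pair of sites given above, is annotated as a transcribed processed pseudogene and was therefore not counted.

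In the Mettl5 dataset, whose libraries took no part in the choice, 146 of the 761 sites were covered above 25 in WT and both clones. The medians were 92.2% for WT, 94.4% for clone 1 and 93.7% for clone 2, beside 95.1% in DMSO and 42.4% in STM2457. In WT, 91 of 146 sites (62.3%, exact 95% interval 53.9% to 70.2%) were at 90% or more and 140 at 80% or more. In the clones 109 and 111 sites were at 90% or more, and 67 sites were so in all 3 libraries. The WT level was below the DMSO level at 113 sites, which were chosen for being high in DMSO. Conversely, of 97 sites at 90% or more in WT and covered in all 5 libraries, 91 (93.8%) were so in DMSO as well, and their median in STM2457 was 50%. Sites that were higher in WT were also higher in STM2457, with a Pearson's r of 0.4997 and a Spearman's rho of 0.505 (n = 146 sites, from libraries of different datasets), which is given without a test.

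Against WT, 0 of the 146 sites were called in either clone by Fisher's exact test at an adjusted p under 0.05, against 0.848% of the 1886 sites tested in this dataset. At an unadjusted p under 0.05 in at least 1 clone there were 10, or 6.85%, against 12.3% of all sites tested. The median difference of the mean of the clones from WT was 1.64 points with its sign and 3.24 points in size. For clone 2 minus clone 1 the median was -0.267 points with its sign and 2.54 points in size. Both clones stood above WT at 75 sites (51.4%, against 45.1% of all sites tested) and below it at 31 (21.2%, against 23.3%), so that these shares were near those of all sites. The clones were compared with the same WT library, so their directions are not independent. With a median of 52 calls in WT, 40.5 in clone 1 and 53 in clone 2, small differences were not detectable at this depth.

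**Figure D5:**
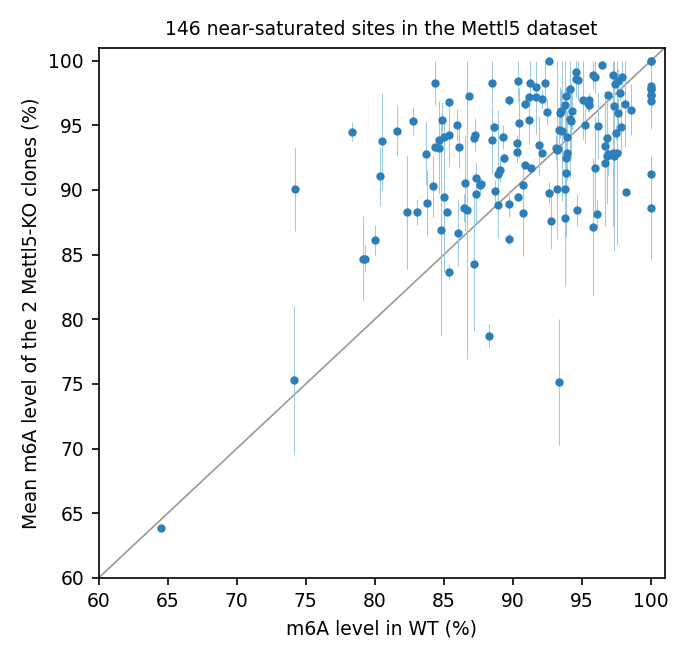
Mean m6A level of both Mettl5-KO clones in percent (y axis) against the level in WT (x axis) for the 146 near-saturated sites covered there, with bars that reach from one clone to the other and a line of equal levels. Most points lie above 80% on both axes, with Scand1 lowest at 64.5% in WT, and 0 sites were called.

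With an unadjusted p under 0.05 in both clones and the same direction there were 5 sites (3.42%, against 2.44% of all sites tested). They are named because of these values, and all 5 were higher in the clones. As the WT library was shared, a low WT level alone can place both clones above it. Those of Hspa5, the chaperone BiP, had 82.8% in WT, 96.4% in clone 1 and 94.3% in clone 2 at the first site and 86.8%, 97.2% and 97.3% at the second. In Slc2a1, the glucose transporter GLUT1, the levels were 84.4%, 93.0% and 93.6%, in G3bp2, a stress granule protein, 85.4%, 96.8% and 96.8%, and in Utf1 80.4%, 88.8% and 93.3%. The lowest adjusted p by Fisher's exact test was 0.156, at the first Hspa5 site in clone 1.

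At the most covered sites the 3 levels were close. Eef2 had 87.7% of 591 calls in WT, 90.95% of 818 in clone 1 and 89.8% of 988 in clone 2. Serbp1, an mRNA-binding protein, had 91.9%, 95.7% and 91.2%, and Actg1, cytoplasmic actin, 87.3%, 92.2% and 87.3%. The largest differences between the mean of the clones and WT rested on few calls. Rnf4, a SUMO-targeted ubiquitin ligase, was lower by 18.2 points, with 93.3% of 30 calls in WT and 70.3% and 80% in the clones, and Slc39a7, a zinc transporter, was higher by 16.1 points, with 78.4% of 37 calls against 93.8% and 95.2%. Maz, a zinc finger factor, with 74.2%, 93.3% and 86.8%, and Calu, a calcium-binding protein, with 84.4%, 100% and 96.6%, were the next. None of these 4 passed the adjusted test. Scand1 had 91.2% in DMSO but 64.5%, 64.1% and 63.6% in WT and the clones, the lowest of all 146 sites in WT. Nup62, the site with the highest level in STM2457 among those with 50 calls or more in both libraries, was at 100% in WT and in both clones.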

How the data were processed

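Native RNA of mESCs was sequenced on a nanopore (SQK-RNA004). The authors demultiplexed with WarpDemuX, used dorado for basecalling, modification calling and mapping to mm10, and summarised the calls with modkit pileup. The deposited values are counts of valid, m6A, canonical, failed and other calls per position and strand, without normalization, and the deposited percent is the share of m6A among valid calls. Failed calls are outside that percent. Positions outside exons are in the deposited tables.

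From these counts, levels were recomputed as m6A calls over valid calls. Positions were assigned on their strand to exons of GENCODE M21 (mm10), and to the transcript used for place, junctions and sequence (Python 3.11.15, pandas 2.3.3, scipy 1.17.1, bedtools 2.31.1). Each site was compared between 2 libraries by a two-sided Fisher's exact test. The p-values were adjusted by Benjamini-Hochberg over every exonic site covered above 25 in each library of the dataset that reached 25% in one of them. The test was tested on simulated data. It compares libraries, since only Mettl5-KO had 2, 1 per clone. Intervals are exact binomial at 95%.

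Sites to name were those with the 8 highest and 8 lowest STM2457 levels at 50 or more calls, genes with 3 or more near-saturated sites, the most covered sites, sites outside DRACH, sites nearest the threshold, the closest pairs, the most covered, lowest and most different sites in the Mettl5 dataset, and members of the gene groups. The sites, groups and lists were chosen with earlier results of these data known. Alternatives were other coverage minimums, DMSO thresholds, exon sets and denominators, DRACH only, another adjustment and each clone left out. Sites on chromosome 18 are given without sequence.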

Additional observations from a re-analysis of the deposited data

Results flagged for a closer look

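A position outside the annotated exons, which entered no comparison, met the other criteria. It lay on the minus strand of chromosome 14 at position 56010435 (mm10), had no exon on the other strand either, and stood at 93.8% of 128 valid calls in DMSO and 31.1% of 103 in STM2457.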

How the results depend on the processing

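A valid coverage above 50 or above 100 left 289 and 109 sites, with a median STM2457 level of 41.2% and 40.5%, 284 and 108 sites called lower, and 55.0% and 53.2% that shared their gene. The share in the 3′ UTR became 68.2% above 50, and that in DRACH 97.2% above 100. A DMSO threshold of 95% left 389 sites, 366 of them called lower, with a median STM2457 level of 51.9%, 51.2% sharing their gene, 82.4% at 90% or more in WT and a median of 95.4% over the clones. A threshold of 85% gave 37.5%, 68.7%, 45.2% and 91.6% for these measures. With the lower bound of the DMSO interval at 80% or more, 50.6% were at 90% or more in WT and the clones had 92.6%. With failed calls in the denominator, 508 sites remained, 478 called lower, with 53.9% sharing their gene, 51.5% at 90% or more in WT and 91.8% over the clones. Sites chosen by WT had 95.4% over the clones and, added after the data were seen, 50% in STM2457. Either clone alone gave 93.7% to 94.4%. Fewer sites entered under the stricter rules, and beyond that the cause was not tested. No near-saturated site was called in a clone by Fisher's exact test under the alternatives run for that count, which left out all deposited positions and sites chosen by WT. No paired analysis was possible because each condition but Mettl5-KO had 1 library. At the median depth of 51 calls a level of 90% in DMSO is known only loosely. The lower bound of the exact 95% interval reached 90% at 175 of the 761 sites. Having 1 library per condition leaves the spread between cultures unknown.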
